A study of Mus with 6 samples.

Results

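The genes described here encode the proteins of the cytosolic ribosome and their close paralogs, as read on Affymetrix expression arrays of mouse brain. Members were the annotated symbols made of Rpl or Rps and a number, together with Rpsa and the acidic stalk proteins, with ribosomal S6 kinases and pseudogene symbols left out. The rule found 63 genes of 19505 with a symbol on the array, each read by 1 probe set. They held 22 proteins of the small subunit, 31 of the large subunit, 2 of the stalk and 8 paralogs or like-named genes. RefSeq listed 62 of the 63 as protein coding and Rps4l as a transcribed pseudogene. Of 84 RefSeq protein-coding symbols that fit the rule, 62 were measured and the others, among them Rpl13a, Rplp2, Rps3 and Rps27a, were not analysed here.

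The study asked whether compound K (CK), a ginsenoside, affected the brains of ICR mice with memory impairment brought on by SCOP. CK mice received 40 mg/kg CK by gavage and 2 mg/kg SCOP by intraperitoneal injection. SCOP mice, called the model in the labels, received 2 mg/kg SCOP without CK, and Control mice received saline. Treatment lasted 14 days, SCOP was given from day 7, and brains were taken after behavioural tests that included electric shocks. The labels spell the agent behind SCOP as scopoletin hydrobromide, and both CK and SCOP mice received it. Each group had 2 arrays, called biological replicates. Whether an array held 1 mouse or a pool, and the age and sex of the mice, are not given in the sources used here, so p-values measure only the spread between these arrays.

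The cytosolic ribosome translates nearly all cellular mRNA. Its small subunit decodes the message and its large subunit joins amino acids, and each is built from ribosomal RNA and a set of proteins made in nearly equal numbers. Mammalian ribosomal protein mRNAs begin with a terminal oligopyrimidine (TOP) tract, through which mTORC1 and the RNA-binding protein LARP1 adjust their translation. In neurons, ribosomes also lie in dendrites, where local protein synthesis is tied to lasting synaptic change. The values below are mRNA levels of whole brain tissue, where fewer cells of a type and less RNA per cell cannot be told apart, and they do not measure translation.

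Values are log2 expression levels from robust multi-array averaging (RMA), so that a difference of 1 is a 2-fold difference, and array values are given with replicate 1 before replicate 2. Over all genes, 1 array, SCOP replicate 2, differed from the rest. Its correlation with them was 0.965 to 0.969, against 0.990 to 0.993 among the others, its interquartile range was 3.19, against 3.57 to 3.70, and its GC-rich background probes averaged 6.10, against 4.99 to 5.19. The 10 neuron markers averaged 8.65 there and 9.37 to 9.42 on the other arrays. Choroid plexus markers (6 genes) averaged 5.85 there, against 6.37 to 7.05, and astrocyte markers (8 genes) averaged 8.33, against 8.44 to 8.60. Oligodendrocyte markers (7 genes) averaged 8.17, against 8.29 to 8.59, and endothelial markers (7 genes) 5.75, against 6.11 to 6.48. Microglial markers (7 genes) averaged 5.96 there, within the 5.90 to 6.41 of the other arrays. The 7 markers of other tissues, of which 6 were dim on all arrays, averaged 4.18 there, against 3.66 to 3.85. The 4 erythroid markers, of which 2 were dim on all arrays, averaged 4.35 and 4.40 in CK, 4.82 and 4.81 in SCOP and 4.72 and 4.53 in Control. The part these differences had in the ribosomal protein results was not tested, and the members' group results are given with and without that array.

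Ribosomal protein probe sets were among the bright probe sets of the array. The members' mean signals had a median of 8.86, and 41 of 63 lay above the 95th percentile of all genes. Probe sets bind with different strength, so this order is of signal and not of mRNA amount. Small subunit genes had mean signals of 7.55 to 11.29 (median 8.69) and large subunit genes 6.14 to 10.95 (median 9.51). Paralogs lay lower, at 2.66 to 7.34 (median 5.32). Only Rpl3l and Rpl39l were dim on all 6 arrays, where dim means under the 95th percentile of 5222 negative control probe sets on the same array. Ribosomal protein genes have many near-identical processed copies in the genome, so a probe set can carry signal from more than its named gene. Probe sequences were not used here.

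**Figure D1:**
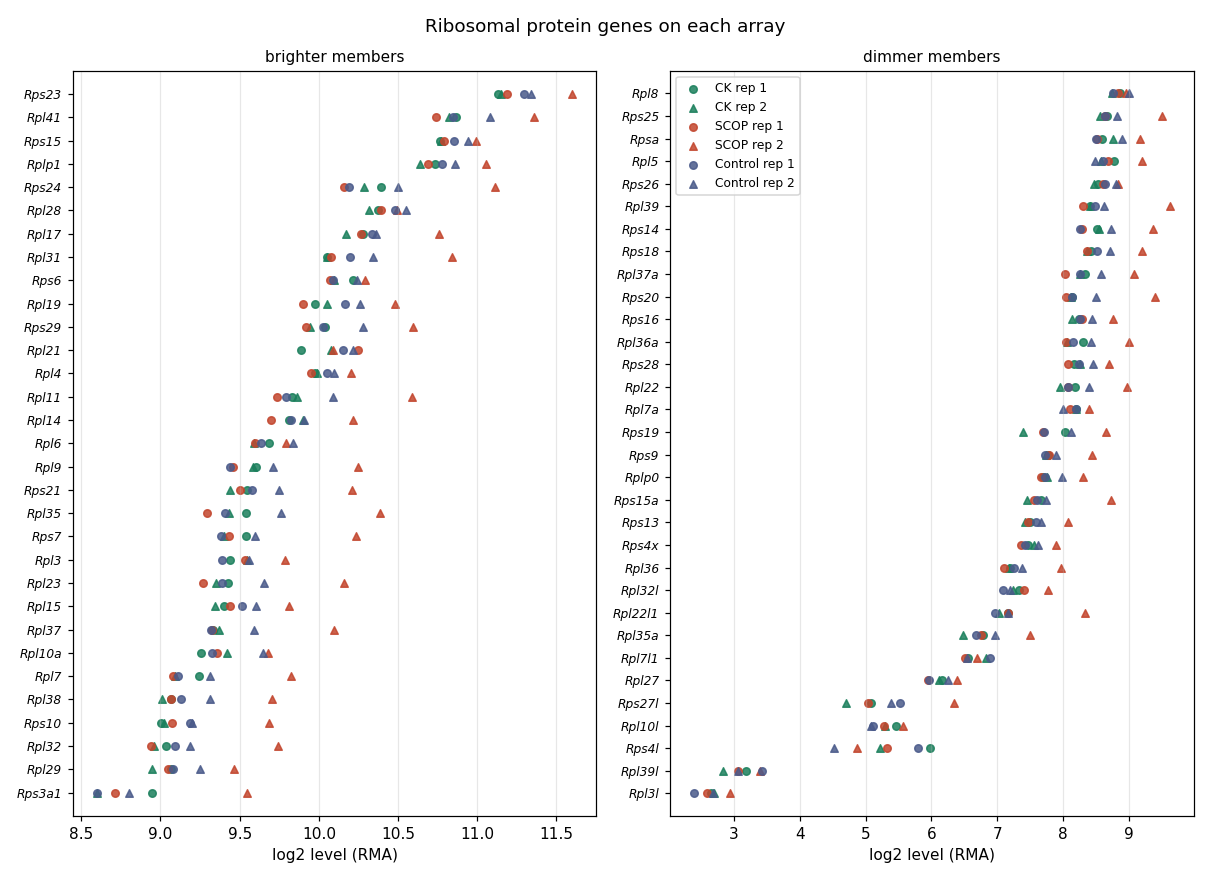
Log2 level (x axis, RMA) of each of the 63 ribosomal protein genes (rows, ordered by mean signal) on the 6 arrays, with colour for the group and marker shape for the replicate. Points of most genes lie close together except for SCOP replicate 2, which is the rightmost point for 56 of 63 genes.

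The main pattern was that most ribosomal protein genes were high together on SCOP replicate 2. That array held the highest value of 56 of the 63 members (88.9%), against 32.6% of all genes, and the lowest value of none of them. Members there exceeded the mean of the other 5 arrays by a median of 0.54, with quartiles of 0.32 and 0.75, against a median of 0.01 over all genes. The 1513 other genes at least as bright as the lower quartile of the members went the other way, with a median of -0.31 and their highest value on SCOP replicate 2 in 22.5%. The members' mean level was 8.56 and 8.49 in CK, 8.49 and 9.09 in SCOP, and 8.54 and 8.68 in Control. SCOP replicate 2 thus stood above the rest, and SCOP replicate 1 was level with the lower CK array. The count of 56 was 61 after quantile normalization, 61 after cyclic loess and 55 after centring array medians.

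The excess on SCOP replicate 2 covered both subunits. All 22 small subunit genes were highest there, with excesses of 0.14 to 1.21 (median 0.62), and 27 of 31 large subunit genes were, with -0.03 to 1.17 (median 0.57). Rps20, a protein of the small subunit head, had 8.14 and 8.13 in CK, 8.05 and 9.40 in SCOP and 8.13 and 8.50 in Control. Rps15a, also of the small subunit, had 7.67 and 7.46 in CK, 7.56 and 8.73 in SCOP and 7.61 and 7.73 in Control. Rpl39, a small protein that lines the exit tunnel of the large subunit, had 8.40 and 8.40 in CK, 8.31 and 9.62 in SCOP and 8.48 and 8.63 in Control. These 3 genes were chosen after their values were seen. For Rps20 and Rpl39 the SCOP arrays held both the lowest and the highest of the 6 values, and for Rps15a the lowest was CK replicate 2. Of the 63 members, 7 had their highest value elsewhere, namely Rpl21 on SCOP replicate 1, Rpl6, Rpl8 and Rpl28 on Control replicate 2, Rpl7l1 and Rpl39l on Control replicate 1, and Rps4l on CK replicate 1.

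**Figure D2:**
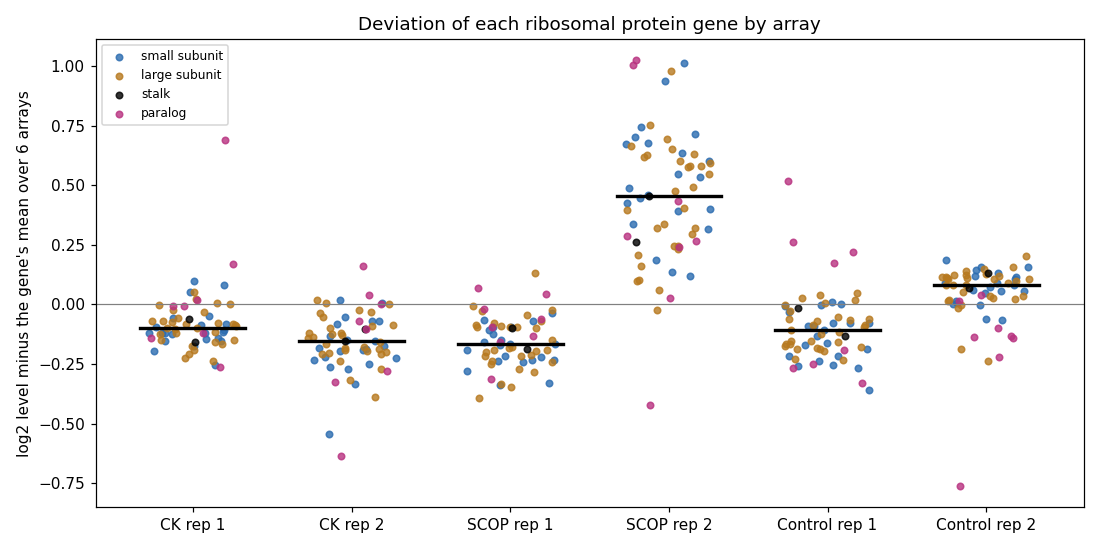
Deviation of each ribosomal protein gene from its own mean over the 6 arrays (y axis, log2), by array (x axis), with points coloured by role and a black bar at the median of the 63 genes. The medians are -0.10 and -0.16 on the CK arrays, -0.17 and 0.45 on the SCOP arrays, and -0.11 and 0.08 on the Control arrays.

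Among the other 5 arrays, Control replicate 2 held the highest value of 51 of 63 members (81%), against 20.9% of all genes. The share was 33.7% among the 1513 other bright genes. The count of 51 was 44 after quantile normalization, 41 after cyclic loess and 54 after centring array medians. The shares of all genes were then 24%, 23.9% and 40.8%. The change between arrays of the same group was a median of 0.18 for Control replicate 2 minus replicate 1, with 56 of 63 above 0, and -0.06 for CK replicate 2 minus replicate 1, with 19 above 0. The lowest of the 5 was SCOP replicate 1 for 23 members and CK replicate 2 for 21. Over all 6 arrays the members' ranges ran from 0.22 to 1.64 (median 0.68), and 12 members spanned more than 1. Without SCOP replicate 2 the median range was 0.31, and 1 member, Rps4l, spanned more than 1.

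For each of the 3 comparisons, limma was fitted over all 19505 genes on the 6 arrays. No gene passed an adjusted p of 0.05 in any of them (0% called), and no member had an unadjusted p under 0.05. Standard errors of the members' log2 changes were 0.19 to 0.43 (median 0.25), and all 63 95% confidence intervals included 0 in each comparison. The comparisons of CK with SCOP and of CK with Control share the CK arrays, and those with SCOP share the SCOP arrays, so they are not independent of each other. For a single gene, an exact two-sided permutation test of 2 arrays against 2 could not go below 0.333.

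CK against SCOP addressed what CK did in mice given SCOP. The members' median log2 change was -0.27, with 2 above 0 and 61 below, against a median of 0.02 and 52.4% above 0 over all genes. Without SCOP replicate 2 the members' median was 0.04, with 36 of 63 above 0. Without SCOP replicate 1, so with SCOP replicate 2 as the group's only array, it was -0.58. All 22 small subunit genes and all 31 large subunit genes had changes below 0, with medians of -0.32 and -0.26. These medians were 0.028 and 0.038 without SCOP replicate 2, with 13 of 22 and 18 of 31 above 0. The other bright genes had a median of 0.16. Over all genes, 1.14% had an unadjusted p under 0.05 and were higher in CK and 1.43% were lower, and 0 of 63 members were in either set. The CK and SCOP arrays did not overlap, with CK lower, for 12 members (19%), against 14.3% of all genes, and with CK higher for 0 members, against 15.5% of all genes.

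The smallest unadjusted p-values of CK against SCOP were at Rps27l, Rpl22l1 and Rpl35a. Rps27l, a paralog of Rps27 and a p53 target, had 5.08 and 4.71 in CK, 5.03 and 6.35 in SCOP and 5.52 and 5.39 in Control. Of the SCOP arrays, only replicate 2 was above the CK range, and replicate 1 lay inside it. Both Control arrays were also above the CK range, and the gene was dim on both CK arrays. Its log2 change was -0.79 (SE 0.39, limma adjusted p = 0.89), and it was -0.13 without SCOP replicate 2. Rpl35a, a large subunit protein whose gene is among those mutated in human Diamond-Blackfan anaemia, had 6.79 and 6.47 in CK, 6.76 and 7.49 in SCOP and 6.68 and 6.97 in Control. Its CK and SCOP arrays overlapped, and its log2 change was -0.49 (SE 0.28, limma adjusted p = 0.89), and -0.13 without SCOP replicate 2.

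Rpl22l1 differed most between SCOP replicate 2 and the rest among all members. Rpl22, its paralog, binds and represses Rpl22l1 mRNA in mouse cells. Rpl22l1 had 7.16 and 7.02 in CK, 7.17 and 8.33 in SCOP and 6.97 and 7.16 in Control. Both SCOP arrays were above both CK and both Control arrays, but SCOP replicate 1 cleared the nearest of them by only 0.003. Its log2 change was -0.66 for CK against SCOP (SE 0.35, 95% interval -1.46 to 0.15, limma adjusted p = 0.89) and 0.68 for SCOP against Control (SE 0.35, 95% interval -0.12 to 1.48, limma adjusted p = 0.864). Without SCOP replicate 2 these were -0.08 and 0.10. Rpl22 itself had 8.18 and 7.96 in CK, 8.08 and 8.97 in SCOP and 8.08 and 8.39 in Control, high on the same array as Rpl22l1.

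SCOP against Control addressed what SCOP did on its own. The members' median log2 change was 0.17, with 54 above 0 and 9 below, against 0.00043 over all genes, and it was -0.14 without SCOP replicate 2, with 10 above 0. The sign of the family's median therefore rested on that array. Without SCOP replicate 1 the members' median was 0.47. Small subunit genes had a median of 0.17 with 20 of 22 above 0, and large subunit genes 0.17 with 27 of 31 above 0. Both subunits had a median of -0.14 without SCOP replicate 2, with 1 of 22 and 4 of 31 above 0. Of all genes, 2.25% had an unadjusted p under 0.05 and were higher in SCOP and 1.06% were lower, against 0 members in either set. SCOP arrays lay wholly above Control arrays for 4 members, Rpl5, Rpl10l, Rpl22l1 and Rpl32l (6.35%), against 15% of all genes, and wholly below for 0 members, against 13.3%.

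Of those 4, Rpl32l had the smallest p. It is a gene named for its likeness to Rpl32, and it had 7.33 and 7.23 in CK, 7.41 and 7.77 in SCOP and 7.09 and 7.20 in Control. Its log2 change of SCOP against Control was 0.45 (SE 0.21, limma adjusted p = 0.864), and 0.26 without SCOP replicate 2. Rpl32, which sits in the large subunit, had 9.04 and 8.96 in CK, 8.94 and 9.74 in SCOP and 9.09 and 9.19 in Control, so its arrays of SCOP and Control overlapped. Rpl5 binds ribosomal RNA together with Rpl11, and the complex restrains Mdm2 when ribosome assembly is disturbed. Rpl5 had 8.69 and 9.19 in SCOP and 8.60 and 8.48 in Control, with 8.77 and 8.58 in CK, and a log2 change of SCOP against Control of 0.40 (SE 0.23, limma adjusted p = 0.864), which was 0.15 without SCOP replicate 2. Rpl11 had 9.73 and 10.59 in SCOP and 9.80 and 10.09 in Control, with 9.83 and 9.86 in CK. The SCOP and Control arrays thus overlapped for Rpl11 and not for its partner.

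**Figure D3:**
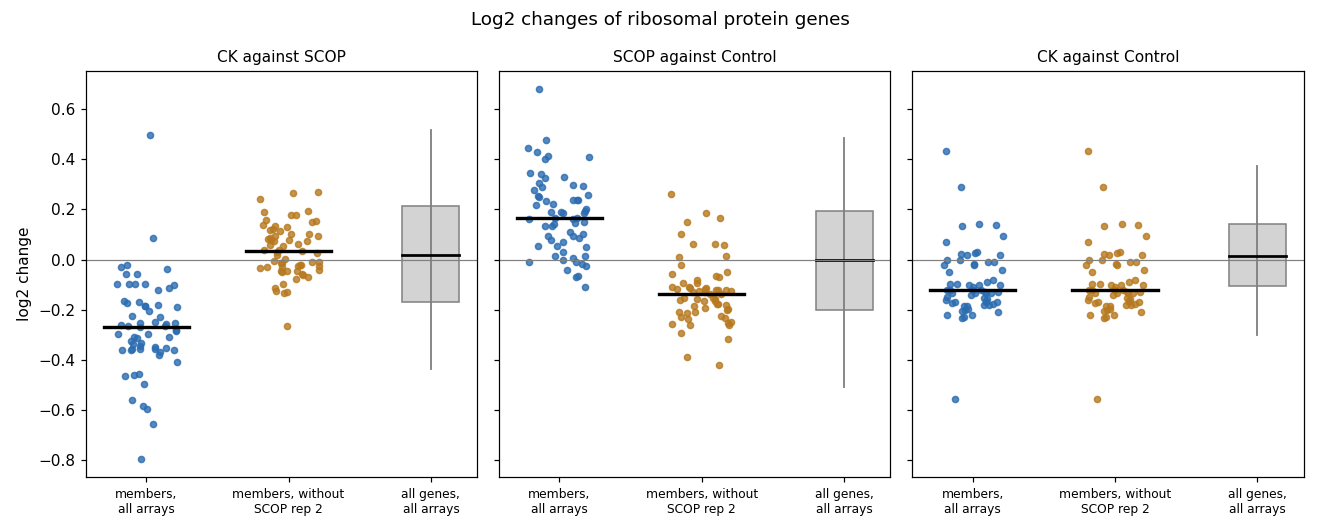
Log2 changes of the 63 ribosomal protein genes (y axis) in each comparison, with all arrays and without SCOP replicate 2, beside all genes (box at the quartiles, line from the 5th to the 95th percentile). Black bars are medians, which are -0.27 for CK against SCOP and 0.17 for SCOP against Control with all arrays, and 0.04 and -0.14 without SCOP replicate 2.

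CK against Control does not use the SCOP arrays in its means. The members' median log2 change was -0.12, with 12 above 0 and 51 below, against 0.01 and 53.2% above 0 over all genes. The other bright genes had a median of -0.03, with 41.3% above 0. The members' median was -0.01 without Control replicate 2, with 28 above 0 and 35 below, and -0.20 without Control replicate 1. Small subunit genes had a median of -0.13 with 2 of 22 above 0, and large subunit genes -0.12 with 5 of 31 above 0. Of all genes, 0.969% had an unadjusted p under 0.05 and were higher in CK and 0.467% were lower, against 0 members in either set. The CK arrays lay wholly below the Control arrays for 22 members (34.9%), against 15.7% of all genes, and wholly above for 2 members, Rpl10l and Rpl32l (3.17%), against 18.4%. With other scalings the count of 22 was 21 (quantile), 23 (cyclic loess) and 23 (centred medians). The shares of all genes were then 17.4%, 17.4% and 23.4%. The smallest adjusted p of a member was 0.99987 by limma. Rps27l had a log2 change of -0.56 (SE 0.39), and in the fit without SCOP replicate 2 its limma adjusted p was 0.934. It was there the 1 member of 63 at an unadjusted p under 0.05, against 5.18% of all genes.

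For 9 members both CK arrays lay below all 4 others (14.3%, against 4.62% of all genes), and for 0 members both lay above them, against 5.89% of all genes. These 9 genes were Rps10, Rps15, Rps16, Rps23 and Rps26 of the small subunit and Rpl15, Rpl21, Rpl28 and Rpl31 of the large subunit, and they were singled out after their values were seen. With other scalings the count was 7 (quantile), 8 (cyclic loess) and 9 (centred medians), against 5.46%, 5.37% and 6.99% of all genes. Rps23 and Rpl31 dropped out under quantile normalization and Rps15 under cyclic loess, so their place among the 9 depended on the scaling. None of the 9 had an unadjusted p under 0.05 in the limma fit.

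The small subunit genes Rps23, Rps15 and Rps26 are taken first. Rps23, which reaches into the decoding centre, had 11.13 and 11.15 in CK, 11.19 and 11.60 in SCOP and 11.29 and 11.34 in Control. Rps15 had 10.76 and 10.77 in CK, 10.79 and 10.99 in SCOP and 10.86 and 10.94 in Control. Rps26, which lies at the mRNA exit channel in yeast ribosomes, had 8.52 and 8.46 in CK, 8.61 and 8.83 in SCOP and 8.64 and 8.80 in Control. In all 3 the CK arrays lay close together, and the gap to the next array was 0.04 for Rps23, 0.02 for Rps15 and 0.08 for Rps26. The log2 changes of CK against Control were -0.18 (SE 0.21), -0.13 (SE 0.20) and -0.23 (SE 0.20) in the same order.

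The other 2 small subunit genes were of like size. Rps10, which is ubiquitinated on collided ribosomes, had 9.002 and 9.02 in CK, 9.07 and 9.69 in SCOP and 9.19 and 9.20 in Control. Rps16, whose tail touches the tRNA in the peptidyl site, had 8.24 and 8.13 in CK, 8.28 and 8.75 in SCOP and 8.26 and 8.44 in Control. The replicates of Rps10 differed by 0.02 in CK and 0.01 in Control, less than the 0.61 between its SCOP arrays.

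Of the large subunit genes, Rpl31 lies at the rim of the exit tunnel and had 10.05 and 10.05 in CK, 10.08 and 10.84 in SCOP and 10.20 and 10.34 in Control. Rpl15 had 9.40 and 9.34 in CK, 9.44 and 9.81 in SCOP and 9.52 and 9.60 in Control. For both, SCOP replicate 1 lay just above the CK arrays and below both Control arrays. Rpl28 had 10.37 and 10.31 in CK, 10.39 and 10.49 in SCOP and 10.48 and 10.55 in Control. Rpl21 had 9.89 and 10.08 in CK, 10.25 and 10.09 in SCOP and 10.15 and 10.22 in Control. Rpl21 and Rpl28 were thus 2 of the members that were not highest on SCOP replicate 2, and their log2 changes of CK against Control were -0.20 (SE 0.20) and -0.17 (SE 0.19).

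**Figure D4:**
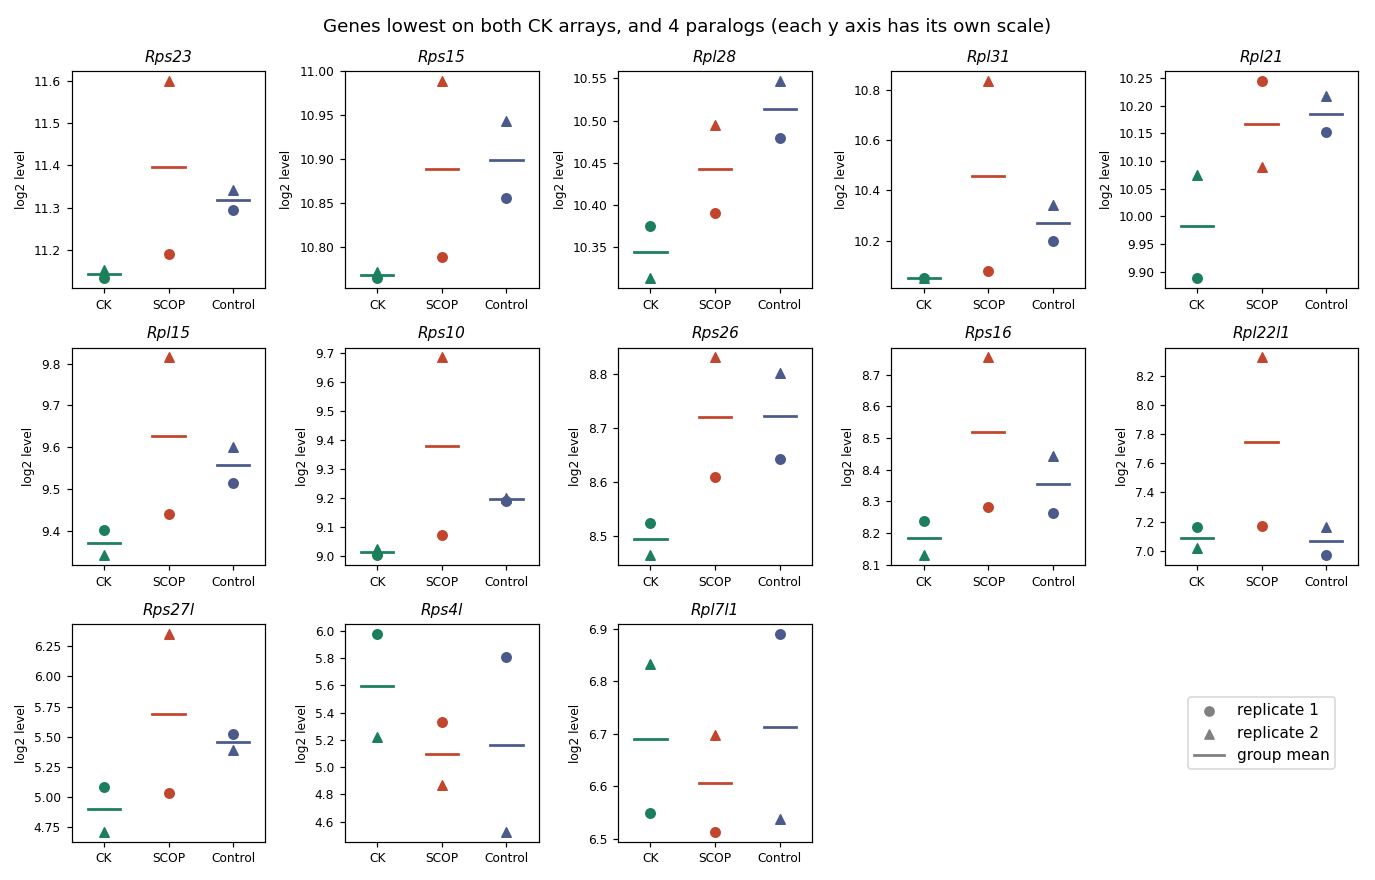
Log2 level (y axis, own scale for each gene) by group for the 9 ribosomal protein genes lowest on both CK arrays and for 4 paralogs, with points for the arrays and a bar for the mean of 2. The CK points sit below the others for the 9 genes from Rps23 to Rps16, and the lone high SCOP point of Rpl22l1 (8.33) and Rps27l (6.35) is SCOP replicate 2.

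The members with the narrowest range were Rps6, Rps15 and Rpl28. Rps6, the substrate of the S6 kinases that act downstream of mTORC1, had 10.22 and 10.10 in CK, 10.07 and 10.29 in SCOP and 10.09 and 10.24 in Control. Every group's arrays overlapped those of the others, and the log2 changes were -0.02 for CK against SCOP, 0.01 for SCOP against Control and -0.01 for CK against Control (SE 0.20 each).

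The brightest signals were those of Rps23, Rpl41 and Rps15. Rpl41, the smallest protein of the ribosome, had 10.87 and 10.82 in CK, 10.74 and 11.36 in SCOP and 10.85 and 11.08 in Control, with a log2 change of -0.20 for CK against SCOP (SE 0.25) and 0.10 without SCOP replicate 2. The SCOP arrays again lay on either side of both other groups.

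The stalk recruits elongation factors to the large subunit, and Rplp0 anchors it. Rplp0 had 7.69 and 7.75 in CK, 7.66 and 8.31 in SCOP and 7.72 and 7.98 in Control. Rplp1 had 10.73 and 10.64 in CK, 10.69 and 11.06 in SCOP and 10.78 and 10.86 in Control. Both were highest on SCOP replicate 2 and next highest on Control replicate 2, and the log2 change of CK against Control was -0.13 for each (SE 0.26 and 0.21). The CK arrays lay below both Control arrays for Rplp1 and overlapped them for Rplp0.

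Of the 8 paralogs and like-named genes, 5 were highest on SCOP replicate 2, among them Rpl3l, which was dim on all 6 arrays. The level under which a gene was dim was 5.55 on SCOP replicate 2, against 4.98 to 5.16 on the others. Rps4l, the RefSeq pseudogene related to Rps4x, had 5.97 and 5.22 in CK, 5.33 and 4.87 in SCOP and 5.80 and 4.52 in Control. It was dim on SCOP replicate 2 and Control replicate 2. Its arrays of the same group differed by up to 1.28, more than any difference between group means, and its log2 changes were 0.50, -0.07 and 0.43 (SE 0.43). Rps4x, the protein-coding parent, had 7.47 and 7.56 in CK, 7.36 and 7.89 in SCOP and 7.42 and 7.61 in Control.

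Rpl10l, a testis paralog that stands in for Rpl10 in mouse spermatogenesis, had 5.47 and 5.30 in CK, 5.28 and 5.56 in SCOP and 5.11 and 5.08 in Control. Both Control arrays were lowest, and its log2 change was 0.29 for CK against Control (SE 0.21, limma adjusted p = 0.99987). Rpl10l was dim on Control replicate 1, where the level for dim was 5.16. On SCOP replicate 2 it lay just above that array's level of 5.55. Its lack of overlap with Control thus involved signals near the negative controls. Rpl7l1, a paralog of Rpl7, had 6.55 and 6.83 in CK, 6.51 and 6.70 in SCOP and 6.89 and 6.54 in Control, and all groups overlapped. Rpl7 had 9.25 and 9.09 in CK, 9.08 and 9.82 in SCOP and 9.11 and 9.31 in Control.

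The 2 members that were dim on all arrays are paralogs known from other tissues. Rpl3l, which replaces Rpl3 in striated muscle, had 2.65 and 2.70 in CK, 2.60 and 2.95 in SCOP and 2.39 and 2.68 in Control. Rpl39l, a testis form of Rpl39, had 3.18 and 2.83 in CK, 3.06 and 3.40 in SCOP and 3.42 and 3.06 in Control. Neither was above the negative controls on any array, so no change between groups is given for them. Their parents were bright, and Rpl3 had 9.44 and 9.54 in CK, 9.53 and 9.79 in SCOP and 9.39 and 9.56 in Control.

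Related gene lists were set beside the ribosomal proteins. The 16 measured other TOP mRNAs encode translation factors and other proteins such as Nap1l1 and Npm1. They had a median deviation of 0.04 on SCOP replicate 2, against 0.45 for the members. Their median log2 changes were -0.02 for CK against SCOP, -0.01 for SCOP against Control and -0.04 for CK against Control, and 0 of 16 had an unadjusted p under 0.05. The medians of the comparisons with SCOP were 0.0015 and -0.05 without SCOP replicate 2. Within the list, Eif3e, a subunit of the initiation factor that binds the small subunit, had 6.81 and 6.93 in CK, 6.99 and 7.64 in SCOP and 6.92 and 7.18 in Control. Pabpc1, the poly(A)-binding protein, had 8.71 and 8.67 in CK, 8.84 and 8.39 in SCOP and 9.02 and 8.90 in Control. Eif3e was highest on SCOP replicate 2 and Pabpc1 lowest there.

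The 76 mitochondrial ribosomal protein genes had a median deviation of 0.17 on SCOP replicate 2 and median log2 changes of -0.07, 0.03 and -0.11 for CK against SCOP, SCOP against Control and CK against Control. In CK against SCOP 1 of 76 had an unadjusted p under 0.05, Mrpl47 (log2 change -0.68, limma adjusted p = 0.89), which was dim on 5 arrays. Of all genes, 1.43% were lower in CK at such a p. The 97 subunits of oxidative phosphorylation had a median deviation of 0.25 on that array and the 38 proteasome subunits 0.05. Oxidative phosphorylation genes had median log2 changes of -0.19 for CK against SCOP, 0.09 for SCOP against Control and -0.11 for CK against Control, and proteasome genes -0.04, -0.01 and -0.07. Those 2 lists were chosen after values were seen. Without SCOP replicate 2 the medians of CK against SCOP and SCOP against Control were -0.0095 and -0.10 for mitochondrial ribosomal proteins, -0.0012 and -0.08 for oxidative phosphorylation and 0.05 and -0.11 for the proteasome.

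Among 43 ribosome assembly genes the median deviation on SCOP replicate 2 was -0.08, and the median log2 changes were 0.10 for CK against SCOP, -0.03 for SCOP against Control and 0.06 for CK against Control. Without SCOP replicate 2 the median of CK against SCOP was 0.06 and that of SCOP against Control -0.0011. In CK against SCOP 2 of 43 were higher at an unadjusted p under 0.05, against 1.14% of all genes. Bysl, needed for maturing the small subunit, had 6.31 and 6.54 in CK and 6.02 and 5.48 in SCOP (log2 change 0.68, limma adjusted p = 0.89). It was dim on SCOP replicate 2. Heatr1, of the small subunit processome, had 5.37 and 5.25 in CK and 5.08 and 3.76 in SCOP (log2 change 0.89, limma adjusted p = 0.89), and it was dim on 3 arrays. In both, both CK arrays were above both SCOP arrays and SCOP replicate 2 was the lowest. Polr1b, a subunit of RNA polymerase I, was lower in SCOP than in Control at an unadjusted p under 0.05 (log2 change -0.49, limma adjusted p = 0.864). Of all genes, 1.06% were lower in SCOP at such a p. Polr1b had 5.20 and 4.97 in SCOP and 5.66 and 5.49 in Control, and was dim on SCOP replicate 2. Riok2, a kinase of late small subunit assembly, had 6.45 and 6.48 in CK and 6.18 and 5.14 in Control (log2 change 0.81, limma adjusted p = 0.99987), with Control replicate 2 the lowest array.

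The 17 measured genes of mTORC1 and TOP control had a median deviation of -0.33 on SCOP replicate 2, where neuron markers had -0.59. Their median log2 changes of 0.23 for CK against SCOP and -0.12 for SCOP against Control were -0.04 and 0.00 without that array. Larp1, which binds TOP tracts, had 8.59 and 8.65 in CK, 8.48 and 8.01 in SCOP and 8.40 and 8.56 in Control. Eif4ebp1, the translation repressor that mTORC1 phosphorylates, had the list's only unadjusted p under 0.05 in CK against Control (limma adjusted p = 0.99987), but it was dim on all 6 arrays and no fold is given. Of all genes, 0.969% were higher in CK at such a p. Of 8 measured ribosome quality control genes, 0 had an unadjusted p under 0.05.

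**Figure D5:**
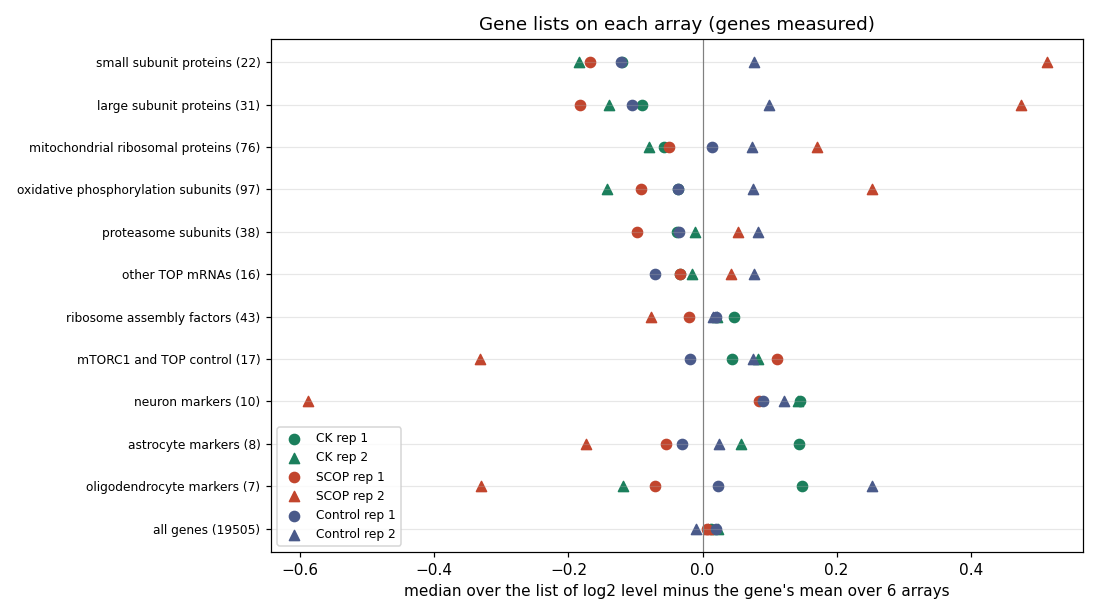
Median deviation from each gene's mean over 6 arrays (x axis, log2) for each gene list (rows, with the number of genes measured) on each array. SCOP replicate 2 stands farthest to the right for small subunit (0.51) and large subunit proteins (0.47) and near 0 for the other TOP mRNAs (0.04). It stands to the left for markers of neurons (-0.59), oligodendrocytes (-0.33) and astrocytes (-0.17) and for genes of mTORC1 and TOP control (-0.33).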

How the data were processed

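RNA of 6 mouse brains or brain pools (2 CK, 2 SCOP and 2 Control) was read on 1-colour Affymetrix arrays. The authors deposited log2 values normalized by RMA, with no version stated, and these were used as deposited, with 0 value columns left out. Of 29129 probe sets, 22206 were transcript probe sets and 19572 of those carried a symbol in the platform annotation. Several probe sets read 55 of the genes, which were then represented by the brightest on average, leaving 19505 genes. Array methods give no read depth, and precision is limited by 2 arrays a group.

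Groups came from the sample titles. Linear models with moderated variances (limma 3.58.1, R 4.3.3, with 3 residual and 5.08 prior degrees of freedom) were fitted over all genes, with Benjamini-Hochberg adjustment, and the script was tested on simulated data. All 63 members matched RefSeq (GRCm38.p6) by Entrez identifier. Members named were the stalk proteins, the listed paralogs, the 3 brightest, dimmest, widest and narrowest, and the 3 with the smallest p in each comparison, and other members named, such as the parents and partners of these (Rpl3, Rpl7, Rpl11, Rpl22, Rpl32 and Rps4x), were chosen after their values were seen. The members and lists were chosen with earlier results of these data known. Alternatives were other scalings, filters on dim genes, probe set rules, variance settings, a replicate block, the methods' t-test and leaving out each array.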

Additional observations from a re-analysis of the deposited data

How the results depend on the processing

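The count of members called by limma was 0 in each comparison under every alternative except leaving out SCOP replicate 1. That fit had only SCOP replicate 2 for its group and took its spread from the CK and Control arrays. Over the fits that left out 1 array, CK against SCOP had 0 to 24 members called, 0 to 42 at an unadjusted p under 0.05 and medians of -0.58 to 0.036. SCOP against Control had 0 to 12, 0 to 35 and medians of -0.14 to 0.47, and CK against Control had 0 called and 0 to 1 at an unadjusted p. With 1 array in the SCOP group, the calls of the fit without SCOP replicate 1 carry no spread within that group and are not given here. The cause of the shifts in the median was not tested. At an unadjusted p under 0.05, SCOP against Control had 1 member (Rpl32l) under quantile and under cyclic loess normalization, against 3.31% and 3.39% of all genes. CK against Control had 1 (Rps27l) in a fit of only the arrays compared and 2 (Rps10, Rps23) by the methods' t-test, whose count after Benjamini-Hochberg was 0. In those fits 5.18% and 5% of all genes had such a p.

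Signs of small changes turned with scaling. Under quantile and cyclic loess normalization, Rpl7l1 had -0.026 and -0.027 in CK against SCOP and 0.00665 and 0.00929 in SCOP against Control. In SCOP against Control, Rpl28 had 0.033 and 0.12, Rps15 0.014 and 0.18, and Rps26 0.11 and 0.17. In CK against Control, Rps6 had 0.015 and 0.029. With centred medians, Rps6 had -0.0097 in SCOP against Control and Rpl22l1 -0.045 in CK against Control.

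Leaving out 1 array also turned signs. In CK against SCOP the ranges were -0.18 to 0.10 for Rpl10l, -0.51 to 0.10 for Rpl41, -0.057 to 0.23 for Rpl7l1, -0.58 to 0.057 for Rplp0 and -0.13 to 0.085 for Rps6. In SCOP against Control they were -0.066 to 0.66 for Rpl35a, -0.22 to 0.39 for Rpl41, -0.28 to 0.069 for Rpl7l1, -0.19 to 0.46 for Rplp0, -0.13 to 0.24 for Rplp1, -0.11 to 0.090 for Rps15, -0.13 to 0.28 for Rps23, -0.11 to 0.11 for Rps26, -0.42 to 0.90 for Rps27l, -0.71 to 0.57 for Rps4l and -0.093 to 0.12 for Rps6. In CK against Control they were -0.074 to 0.12 for Rpl22l1, -0.20 to 0.15 for Rpl7l1, -0.26 to 0.0029 for Rplp0, -0.21 to 1.07 for Rps4l and -0.084 to 0.066 for Rps6.

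Same-numbered arrays did not deviate together (correlations of -0.03, 0.02 and -0.005), so the numbers do not pair the samples. With the replicate block the medians were -0.27, 0.17 and -0.12 for CK against SCOP, SCOP against Control and CK against Control, and the count called was 0 in each.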

Other observations

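Some genes close to the members fell outside the rule. Fau, whose product carries the ribosomal protein of the small subunit named eS30, had 8.62 and 8.73 in CK, 8.52 and 9.18 in SCOP and 8.71 and 8.96 in Control. Rpl36al had 6.68 and 6.54 in CK, 6.46 and 7.49 in SCOP and 6.67 and 6.71 in Control. The retrocopies Rps27rt and Rpl37rt, chosen after values were seen, had 8.35 and 9.79 on SCOP replicate 2, and on the other 5 arrays they had 7.44 to 7.74 and 8.89 to 9.17. All 4 genes were highest on SCOP replicate 2.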
